A study of Mus musculus with 20 samples.

Results

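The genes described here are 9 chaperone genes of mouse spermatogenic cells, chosen by symbol from the HSP70 and HSP90 families and from the testis chaperones of the endoplasmic reticulum (ER). They are Hspa2, Hspa1l, Hspa4l, Hspa8, Hsp90aa1, Hsp90ab1, Clgn, Calr3 and Pdilt. All 9 were among the 23235 genes of the deposited expression table, and all 9 passed the filter on low values. RNA was measured in 12 libraries, each made from 500 spermatocytes that were isolated by fluorescence-activated sorting from adult male C57BL/6 mice. The 6 groups were WT and Cxxc1-null cells labelled pachytene, diplotene or meiosis II spermatocytes, with 2 libraries in each. All libraries shared the strain background, the sort and an oligo-dT primed Smart-seq2 amplification. Cxxc1 encodes CXXC finger protein 1, a subunit of a histone H3 lysine-4 methyltransferase complex that binds DNA at unmethylated CG dinucleotides. The sources used here do not give the exact age, the deleted part of Cxxc1 or any Cre driver. Nothing in the labels tells whether the 2 libraries of a group are from different mice, so the p-values reflect library-to-library spread that may be technical.

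HSP70 chaperones bind and release exposed stretches of unfolded protein in a cycle driven by ATP, helped by J-domain proteins and nucleotide exchange factors, and they pass some clients on to HSP90. Spermatocytes and spermatids add their own versions. HSPA2 is the HSP70 that mouse spermatocytes make in large amounts, and male mice without it stop in meiosis. HSPA1L is a testis HSP70 of spermatids, and HSPA4L belongs to the HSP110 branch that acts as a nucleotide exchange factor. HSPA8 is the constitutive HSP70 of most cells. HSP90AA1 and HSP90AB1 are the cytosolic HSP90 forms, and the first is abundant in male germ cells. In the ER, calmegin (CLGN) resembles calnexin, calsperin (CALR3) resembles calreticulin, and PDILT is a testis protein of the disulfide isomerase family. In mice all 3 are needed for the surface protein ADAM3 to reach mature sperm.

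Promoter sequences were read from the RefSeq promoter table of GRCm38.p6, which held 5 of the 9 genes (Hspa2, Hspa1l, Hspa4l, Calr3 and Pdilt). Each window is the 250 bases upstream of the annotated start, printed 5′ to 3′ on the gene's strand, with every CG dinucleotide in capitals, the letters that the CXXC domain is known to bind. The expression table was made on build mm9, and these coordinates hold only for GRCm38.p6. The windows printed are those of the 3 genes that rose into meiosis II and of Hspa2, a highly expressed gene with no called change.
Pdilt, chr7:119523483-119523732, minus strand: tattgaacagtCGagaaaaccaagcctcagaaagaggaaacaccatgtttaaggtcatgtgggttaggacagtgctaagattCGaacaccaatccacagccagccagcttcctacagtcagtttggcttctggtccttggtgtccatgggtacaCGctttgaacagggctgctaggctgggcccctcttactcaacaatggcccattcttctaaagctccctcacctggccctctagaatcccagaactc
Calr3, chr8:72443779-72444028, minus strand: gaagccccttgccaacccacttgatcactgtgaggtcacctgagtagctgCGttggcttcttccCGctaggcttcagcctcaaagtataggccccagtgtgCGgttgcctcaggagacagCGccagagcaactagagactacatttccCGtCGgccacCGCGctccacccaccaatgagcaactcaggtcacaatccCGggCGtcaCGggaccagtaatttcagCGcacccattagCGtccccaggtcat
Hspa1l, chr17:34972453-34972702, plus strand: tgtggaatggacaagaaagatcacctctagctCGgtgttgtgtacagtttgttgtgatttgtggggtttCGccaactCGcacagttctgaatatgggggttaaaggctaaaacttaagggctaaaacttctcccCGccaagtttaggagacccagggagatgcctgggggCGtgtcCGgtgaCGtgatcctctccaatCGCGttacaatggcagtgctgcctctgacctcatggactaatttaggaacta
Hspa2, chr12:76404120-76404369, plus strand: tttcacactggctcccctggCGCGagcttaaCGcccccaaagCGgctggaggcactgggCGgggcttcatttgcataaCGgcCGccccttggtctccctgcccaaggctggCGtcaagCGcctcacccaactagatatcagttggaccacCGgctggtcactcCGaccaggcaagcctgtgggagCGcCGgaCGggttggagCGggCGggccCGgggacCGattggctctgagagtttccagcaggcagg
The Pdilt window held 3 CG dinucleotides, more than 29.0% of the 32851 promoter windows in the table, whose median was 6. The Calr3 window held 13 and stood above 68.5% of windows, while a further Calr3 start in the table had 2. The Hspa1l window held 9, above 59.7% of windows. Hspa2 had 18, above 78.3% of windows, and Hspa4l, not printed, had 34, above 96.5%. The 3 genes that rose into meiosis II thus differed in CG content.

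The heat shock element core was searched as GAANNTTC and as TTCNNGAA, each on both strands. Neither spelling occurred in a window of the 5 genes, and 6.69% and 7.17% of all windows held them. GAANNTTC lay 104 bases upstream of the start in both Hspa1a and Hspa1b, the heat-inducible HSP70 genes. Hspa1a and Hspa1l stand head to head with 547 bases between their starts. TGACGT, the core letters of a cyclic-AMP response element, occurred in the Hspa1l window, 71 bases upstream of the start, and in none of the other 4 genes, against 6.47% of all windows. CCAAT was found in the windows of Hspa2, Hspa1l, Calr3 and Pdilt, against 33.8% of all. The GC box GGGCGG occurred 3 times in the Hspa2 window and 4 times in that of Hspa4l, against 32.7% of windows with at least 1. TATAAA was in none of the 5 genes' windows and in 12.4% of all. A match is a string of letters and not a measured binding site.

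Values are FPKM, fragment numbers scaled by transcript length and by the fragments mapped, so levels of different genes can be set beside each other per length. The labels check was Cxxc1 itself, which averaged 14.5 ± 3.97 FPKM in WT pachytene and 9.38 ± 0.269 in Cxxc1-null pachytene libraries (SD, n = 2). In diplotene it averaged 15.6 ± 2.73 in WT and 8.93 ± 0.906 in Cxxc1-null libraries, and in meiosis II 12.7 ± 0.179 and 2.56 ± 0.765 (SD, n = 2). It was lower in every Cxxc1-null library than in both WT libraries of its stage, but within stages it passed the limma test only in meiosis II (adjusted p = 0.00243), at 0.472 in pachytene and 0.221 in diplotene. The mean log2 difference was −1.08, with p = 0.009259 in an exact 2-sided permutation test within stages, the smallest that the 216 arrangements can give. Those arrangements take the libraries of different stages as independent, which the labels do not state. The p-value would be larger if stages shared mice. The depth in reads is unknown, and 9838 to 11624 genes per library were at 1 FPKM or more. One library stood apart among the diplotene libraries: Cxxc1-null diplotene replicate 2 was closer to WT meiosis II, at r = 0.891 with that group's mean, than the other 3, at 0.834 to 0.849. WT pachytene replicate 2 correlated at 0.955 with the WT diplotene mean, against 0.914 to 0.930 for the other pachytene libraries. The 10 markers of pachytene and diplotene cells were all detected in each group. Their summed level was highest in pachytene, at 2800 to 5320 FPKM in WT and 3320 to 3578 in Cxxc1-null libraries, and was 1551 to 1594 and 1324 to 1383 in meiosis II. The labels name no batch.

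Across the 12 libraries Hsp90aa1 was the highest of the 9, with a median of 1982 FPKM, and it ranked between 18th and 84th of all genes in each library. It made up between 36.6% and 64.7% of the summed FPKM of the 9 genes. Hspa2 followed with a median of 736 FPKM and Clgn with 505. Hspa4l, Hsp90ab1 and Hspa8 had medians of 238, 119 and 107 FPKM. Pdilt, Hspa1l and Calr3 were low, with medians of 6.65, 4.55 and 4.51 FPKM. The low genes varied most, since the highest library exceeded the lowest 64.5-fold for Pdilt, 47.6-fold for Calr3 and 12.2-fold for Hspa1l. The narrowest range was that of Hspa4l, at 1.58-fold.

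**Figure D1:**
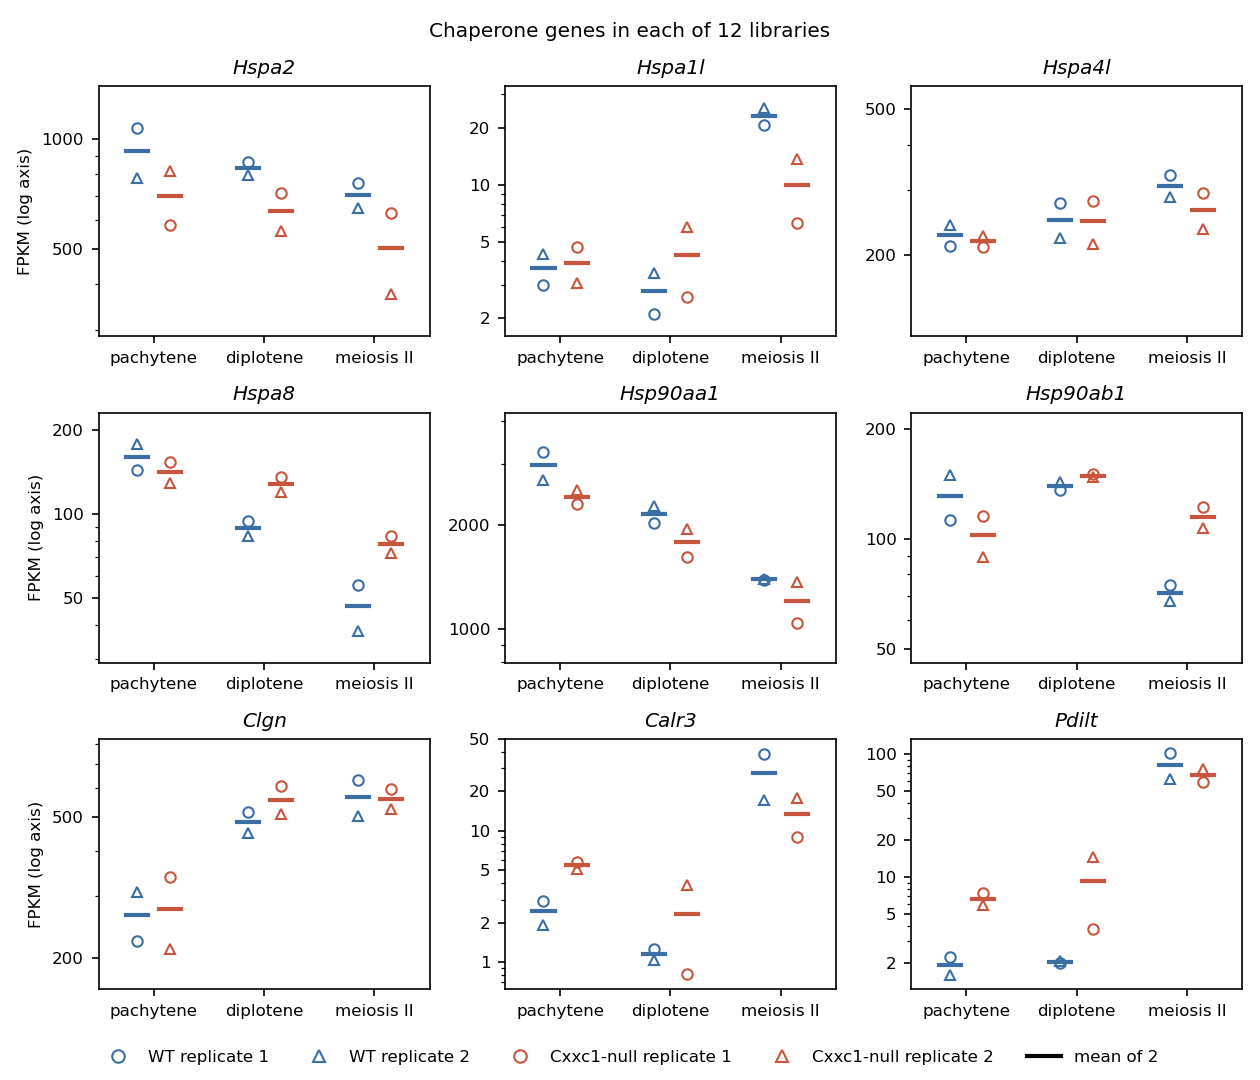
FPKM of each of the 9 chaperone genes on a log axis, by stage, with WT in blue, Cxxc1-null in red, 1 symbol per library and a bar at the mean of 2. Hspa1l, Calr3 and Pdilt sit lowest in pachytene and diplotene and highest in meiosis II, whereas Hspa8 and Hsp90aa1 step down from pachytene to meiosis II.

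Among the HSP70 genes, Hspa2 measured 1071 and 781 FPKM in the WT pachytene libraries, 864 and 798 in WT diplotene and 759 and 647 in WT meiosis II. In Cxxc1-null libraries it measured 581 and 816 in pachytene, 712 and 561 in diplotene and 628 and 377 in meiosis II. The stages overlapped in both genotypes apart from WT meiosis II, whose libraries both lay below those of the earlier WT stages. The limma contrasts of diplotene against pachytene gave log2 −0.14 ± 0.29 (SE, adjusted p = 0.765) in WT and −0.12 ± 0.29 (0.773) in Cxxc1-null cells. From diplotene to meiosis II they gave −0.24 ± 0.29 (0.531) and −0.38 ± 0.29 (0.329). Ordered by group mean, Hspa2 ran from 926 in WT pachytene through 831, 703, 698 and 637 to 502 FPKM in Cxxc1-null meiosis II, and no stage step passed the test.

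Hspa1l stayed at 6.04 FPKM or less until meiosis II. The WT libraries measured 2.98 and 4.37 FPKM in pachytene, 2.09 and 3.44 in diplotene, and 20.7 and 25.6 in meiosis II. The Cxxc1-null libraries measured 4.73 and 3.06, then 2.59 and 6.04, then 6.35 and 13.7. Both genotypes were highest in meiosis II with no overlap with diplotene, but the lower Cxxc1-null meiosis II library lay close to the higher diplotene one. The gene rose from diplotene to meiosis II in WT by log2 2.70 ± 0.41 (limma, adjusted p = 0.000449), an 8.36-fold step of the mean FPKM. In Cxxc1-null cells the step was 1.05 ± 0.41 (adjusted p = 0.0622), and it was 1.53 ± 0.45 (0.0244) without Cxxc1-null diplotene replicate 2 and 1.55 ± 0.45 (0.0251) without Cxxc1-null meiosis II replicate 1. Without the other library of either group it was 0.56 ± 0.45 (0.384, diplotene replicate 1) or 0.55 ± 0.45 (0.396, meiosis II replicate 2), so single libraries decide its size. In bulk samples, fewer cells of a type and less RNA per cell cannot be told apart.

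Hspa4l moved little. It measured 211 and 240 FPKM in WT pachytene, 276 and 221 in WT diplotene and 331 and 287 in WT meiosis II. In Cxxc1-null libraries it measured 209 and 225, then 281 and 214, then 294 and 235. Only WT meiosis II lay clear of the earlier stages of its genotype. Its 4 stage contrasts ranged from log2 0.10 ± 0.22 to 0.32 ± 0.22, with the smallest adjusted p at 0.265. Its relative Hspa4, the widely expressed HSP110-type exchange factor, rose from pachytene to diplotene by 1.08 ± 0.28 in WT (limma, adjusted p = 0.0181) and by 1.14 ± 0.28 in Cxxc1-null cells (0.0150).

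Hspa8 stepped down. In WT libraries it measured 143 and 178 FPKM in pachytene, 93.9 and 83.6 in diplotene and 55.7 and 38.0 in meiosis II, with no overlap between stages. In Cxxc1-null libraries it measured 153 and 129, then 136 and 120, then 83.4 and 72.1, where pachytene and diplotene overlapped. It fell in WT by 0.84 ± 0.23 on the log2 scale from pachytene to diplotene (limma, adjusted p = 0.0235) and by 0.93 ± 0.23 from diplotene to meiosis II (0.00755). In Cxxc1-null cells the first step was −0.14 ± 0.23 (adjusted p = 0.671), and the gene then fell by 0.71 ± 0.23 (0.0282). These calls rest on few libraries. The first WT call ended without WT pachytene replicate 2 (adjusted p = 0.0771), WT diplotene replicate 1 (0.0683) or WT diplotene replicate 2 (0.128), and in a separate fit of those groups (0.102). The second ended without WT diplotene replicate 1 (0.0535) or WT meiosis II replicate 2 (0.0742), and that in Cxxc1-null cells without any of its own 4 libraries, with adjusted p between 0.0517 and 0.146. Processed copies of Hspa8 are known in the mouse genome, and the sources used here do not say how reads shared with them were counted.

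Of the heat-inducible relatives, Hspa1a was at most 0.332 FPKM in any library and Hspa1b at most 0.123, so neither passed the filter for testing. These near-identical copies can share reads.

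Among the HSP90 genes, Hsp90aa1 measured 3248 and 2700 FPKM in WT pachytene, 2023 and 2273 in WT diplotene and 1386 and 1398 in WT meiosis II. In Cxxc1-null libraries it measured 2291 and 2517, then 1613 and 1941, then 1038 and 1370. The 3 stages did not overlap within either genotype. The WT step from diplotene to meiosis II passed the test, a fall of 0.62 ± 0.21 on the log2 scale (limma, adjusted p = 0.0369), and the Cxxc1-null step was −0.57 ± 0.21 (0.0536). That WT call ended without any 1 of 8 libraries, with adjusted p from 0.0507 to 0.173, and it also ended with no filter on low values (0.0660), with equal library medians (0.0529) and under quantile normalization, where the step was −0.34 ± 0.15 (0.0737). From pachytene to diplotene the values were −0.47 ± 0.21 (0.134) in WT and −0.44 ± 0.21 (0.145) in Cxxc1-null cells.

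Hsp90ab1 followed another course. The WT libraries measured 113 and 149 FPKM in pachytene, 136 and 143 in diplotene and 74.7 and 67.7 in meiosis II. The Cxxc1-null libraries measured 116 and 89.1, then 150 and 147, then 122 and 107. Meiosis II was the lowest stage in WT with no overlap, whereas in Cxxc1-null cells meiosis II overlapped pachytene, with means of 115 and 102 FPKM. The gene fell in WT from diplotene to meiosis II by 0.96 ± 0.21 on the log2 scale (limma, adjusted p = 0.00359). The Cxxc1-null step was −0.38 ± 0.21 (adjusted p = 0.174), and the earlier Cxxc1-null step, diplotene against pachytene, was 0.55 ± 0.21 (0.0715).

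Among the ER chaperones, Clgn was the abundant one. It measured 223 and 307 FPKM in WT pachytene, 514 and 448 in WT diplotene and 634 and 502 in WT meiosis II. In Cxxc1-null libraries it measured 338 and 213, then 608 and 508, then 595.8 and 524. Both genotypes were low in pachytene and overlapped between the later stages. Clgn rose from pachytene to diplotene by log2 0.87 ± 0.27 in WT (limma, adjusted p = 0.0353) and by 1.05 ± 0.27 in Cxxc1-null cells (0.0174). From diplotene to meiosis II the values were 0.23 ± 0.27 (0.513) and 0.01 ± 0.27 (0.985). The WT call ended without WT pachytene replicate 1 (adjusted p = 0.193), WT diplotene replicate 1 (0.1499) or WT diplotene replicate 2 (0.0964), with no filter on low values (0.0617) and in a separate fit (0.119). The Cxxc1-null call ended without Cxxc1-null pachytene replicate 2 (0.148) or Cxxc1-null diplotene replicate 1 (0.0994).

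Calr3 was at or below 6 FPKM before meiosis II. The WT libraries measured 2.93 and 1.93 FPKM in pachytene, 1.26 and 1.04 in diplotene and 38.5 and 17.1 in meiosis II. The Cxxc1-null libraries measured 5.78 and 5.15, then 0.808 and 3.88, then 9.06 and 18.0. Within both genotypes diplotene was the lowest stage and meiosis II the highest, with no overlap. Calr3 rose from diplotene to meiosis II by log2 3.64 ± 0.50 in WT (limma, adjusted p = 0.000236) and by 2.22 ± 0.50 in Cxxc1-null cells (0.00506). The earlier step was −0.66 ± 0.50 (0.353) in WT and −1.12 ± 0.50 (0.117) in Cxxc1-null cells. The Cxxc1-null diplotene libraries decide the latter, which was −1.84 ± 0.49 (0.0401) without replicate 2 and −0.40 ± 0.49 (0.597) without replicate 1.

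Pdilt had the widest range of the 9. The WT libraries measured 2.22 and 1.58 FPKM in pachytene, 1.99 and 2.08 in diplotene and 102 and 62.6 in meiosis II. The Cxxc1-null libraries measured 7.37 and 5.93, then 3.74 and 14.6, then 59.3 and 75.2. Meiosis II lay far above both earlier stages in each genotype, and Cxxc1-null diplotene replicate 2 was the highest library outside meiosis II. From diplotene to meiosis II Pdilt rose by log2 4.74 ± 0.47 in WT (limma, adjusted p = 4.13e-05) and by 2.98 ± 0.47 in Cxxc1-null cells (0.000689). The mean FPKM rose 40.4-fold in WT and 7.33-fold in Cxxc1-null cells. Diplotene against pachytene gave 0.07 ± 0.47 (0.933) and 0.18 ± 0.47 (0.8004).

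**Figure D2:**
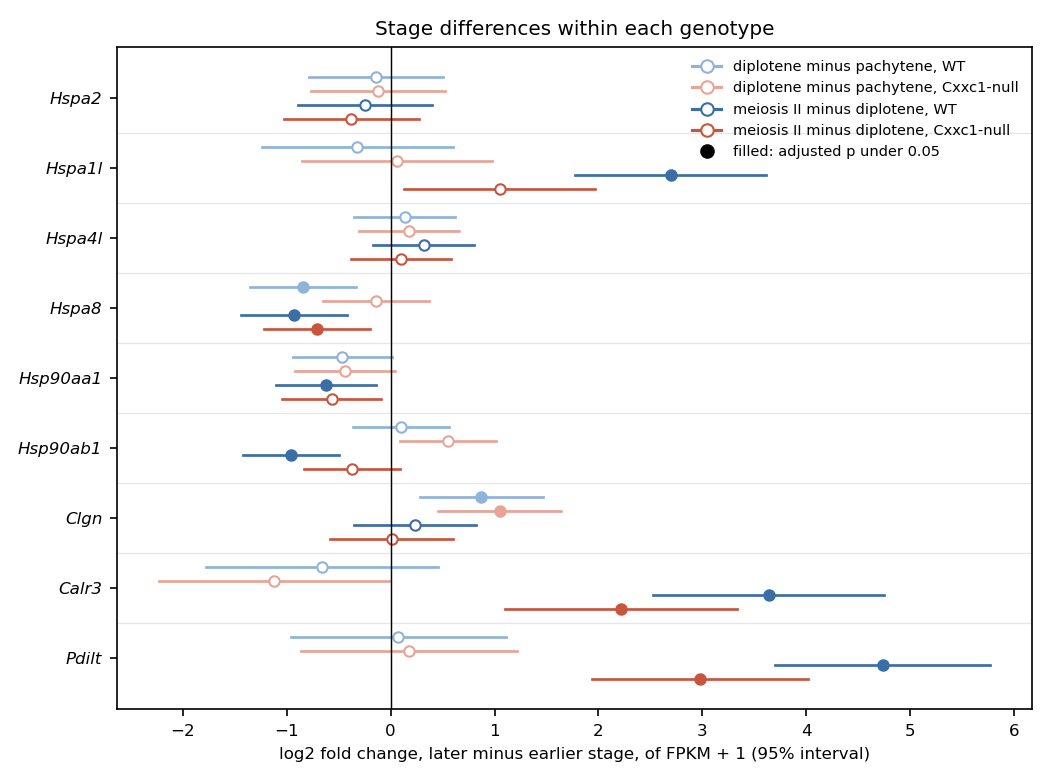
Log2 fold changes of FPKM + 1 between successive stages within WT (blue) and Cxxc1-null (red) cells for the 9 genes, lighter for diplotene minus pachytene and darker for meiosis II minus diplotene, with 95% intervals and filled points at adjusted p under 0.05. Pdilt, Calr3 and Hspa1l have the large positive WT steps into meiosis II (4.74, 3.64 and 2.70). Hspa2, Hspa8 and Hsp90aa1 are negative in all 4 contrasts.

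Counted over the 9 genes, diplotene against pachytene in WT called Clgn higher (9.08% of the 12956 tested genes were called higher) and Hspa8 lower (17.4%). In Cxxc1-null cells the same contrast called Clgn alone (11.9% of all genes higher and 17.4% lower). From diplotene to meiosis II in WT, 3 of 9 rose, against 26.1% of all tested genes, and 3 of 9 fell, against 18.9%. In Cxxc1-null cells 2 of 9 rose, against 25.3%, and 1 of 9 fell, against 18.8%. In WT each share of 3 in 9 was above its background share, and no test of that excess was made. In libraries that did not overlap, diplotene lay above pachytene for 1 of 9 in WT and 2 of 9 in Cxxc1-null cells (24.3% and 31% of all genes) and below for 3 and 2 of 9 (38.7% and 38.6%). Meiosis II lay above diplotene for 4 of 9 in WT and 3 of 9 in Cxxc1-null cells (38.2% and 37.4%) and below for 4 and 3 of 9 (35.8% and 36%). Their median log2 change was −0.14 from pachytene to diplotene and 0.23 from diplotene to meiosis II in WT, beside −0.11 and 0.02 for all tested genes. The successive contrasts share the diplotene libraries.

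Markers of other cells and of cell handling moved with the steps into meiosis II. Of 12 spermatid markers, all tested, 11 rose in each genotype, with median log2 changes of 4.17 in WT and 3.001 in Cxxc1-null cells. None of the 12 was at 0 in both libraries of any group. Their summed level was 2118 to 2314 FPKM in WT and 1582 to 2304 in Cxxc1-null pachytene, 613 to 1032 and 464 to 1171 in diplotene, and 7997 to 11023 and 2734 to 5169 in meiosis II. The 6 tested Sertoli markers of 9 in the table also rose in both genotypes. Of the 9, though, 6 in WT and 7 in Cxxc1-null diplotene were under 1 FPKM in both libraries, so a fall could hardly be seen. The summed level of the 9 was at most 30.0 FPKM in pachytene and 8.96 in diplotene, and it was 237 to 321 in WT and 226 to 236 in Cxxc1-null meiosis II, mostly Clu. The 8 Leydig markers summed to 9.39 to 30.5 FPKM in WT and 31.0 to 51.2 in Cxxc1-null pachytene, 38.4 to 68.5 and 12.3 to 22.8 in diplotene, and 48.5 to 272 and 103 to 188 in meiosis II. Before meiosis II, 5 or 6 of the 8 were under 1 FPKM in both libraries of a group, so those sums rest on few genes. Of 18 genes of the response to cell handling, which include Hspa1a, Hspa1b, Hspb1, Dnajb1 and Hsph1, 13 were tested. Of those, 9 rose from diplotene to meiosis II in WT, with a median log2 change of 1.41, and 8 rose and 1 fell in Cxxc1-null cells, with a median of 0.93. Of the 18, however, 14 in WT and 12 in Cxxc1-null diplotene were under 1 FPKM in both libraries. A fall could hardly be seen in such genes, so these counts of rises carry little weight. The 18 together summed to 123 to 213 FPKM in WT and 175 to 206 in Cxxc1-null pachytene, 298 to 357 and 379 to 404 in diplotene, and 393 to 445 and 504 to 512 in meiosis II. Most of each sum was Dnajb1 alone, at 101 and 186 FPKM in WT pachytene, 270 and 321 in WT diplotene and 294 and 394 in WT meiosis II. The part of these genes and cells in the stage changes of the chaperone genes was not tested.

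Whether the chaperone genes differed between Cxxc1-null and WT cells was asked within each stage and over the 3 stages together. In pachytene none of the 9 passed the limma test, against 0.355% of all tested genes, and 1 had an unadjusted p under 0.05, as did 10.7% of all genes. Pdilt came nearest at log2 1.40 ± 0.47 (adjusted p = 0.297), with both Cxxc1-null libraries above both WT libraries. Calr3 was likewise higher in both, at 0.93 ± 0.50 (0.564). Both libraries lay above WT for 24.1% of all genes and below for 13.3%, and Hsp90aa1 was the 1 chaperone gene below, at −0.30 ± 0.21 (0.678). The summed spermatid markers overlapped between genotypes in pachytene, but 8 of the 12 were higher in mean in Cxxc1-null cells, with a median log2 difference of 0.33, none called and 4 at an unadjusted p under 0.05. The 6 tested Sertoli markers were all higher in mean, with a median of 0.62, none called and 3 at an unadjusted p under 0.05, and the 9 in the table summed to 29.5 to 30.0 FPKM in Cxxc1-null and 8.84 to 24.7 in WT libraries. The part of both in the Pdilt and Calr3 values was not tested.

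In diplotene none of the 9 passed, against 0.787% of all tested genes, and Pdilt and Hspa8 had an unadjusted p under 0.05, as did 13.5% of all genes. Pdilt measured log2 1.503 ± 0.47 (limma, adjusted p = 0.179). Its difference rests on Cxxc1-null diplotene replicate 2, the library nearest to meiosis II: with that library as the only Cxxc1-null one the value was 2.36 ± 0.34 (0.0130), the lone library being assumed to vary like the other groups, and with the other library alone it was 0.64 ± 0.34 (0.716). Hspa8 was at 0.52 ± 0.23 (0.358) and Hsp90ab1 at 0.09 ± 0.21 (0.911). Those 3 genes were higher in both Cxxc1-null libraries, as were 30.4% of all genes. Hspa2 at −0.39 ± 0.29 (0.630) and Hsp90aa1 at −0.28 ± 0.21 (0.652) were lower in both, as were 15.2%.

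In meiosis II none of the 9 passed, against 10.5% of all tested genes (6.14% higher and 4.35% lower), and 3 had an unadjusted p under 0.05, as did 26.1% of all genes. Hsp90ab1, at 122 and 107 FPKM in Cxxc1-null against 74.7 and 67.7 in WT libraries, gave log2 0.68 ± 0.21 (limma, adjusted p = 0.0660), and passed without either of the WT pachytene libraries (0.0388 each). Hspa8, at 83.4 and 72.1 against 55.7 and 38.0 FPKM, gave 0.74 ± 0.23 (0.0693). The 2 constitutive cytosolic chaperone genes were thus higher in both Cxxc1-null libraries, as were 30.1% of all genes, and with the library medians set equal both passed at 0.75 ± 0.19 (0.0325) and 0.81 ± 0.21 (0.0369). Hspa1l, at 6.35 and 13.7 against 20.7 and 25.6 FPKM, gave −1.20 ± 0.41 (0.0940). Hspa1l, Hspa2 at −0.53 ± 0.29 (0.285) and Hsp90aa1 at −0.22 ± 0.21 (0.562) were lower in both Cxxc1-null libraries, as were 26.4% of all genes. The values for Calr3, −0.95 ± 0.50 (0.263), and Pdilt, −0.26 ± 0.47 (0.783), came from overlapping libraries. Beside Hspa1l and Calr3, the summed spermatid markers were lower in both Cxxc1-null meiosis II libraries, with 9 of the 12 markers lower in mean and none of the 12 called. Beside Hspa8 and Hsp90ab1, the 18 genes of the response to cell handling summed to 504 to 512 FPKM in Cxxc1-null and 393 to 445 in WT meiosis II libraries, most of it Dnajb1 at 410 and 418 against 294 and 394 FPKM. Of the 13 tested genes of that list, 6 were higher in mean, none was called higher, 1 was called lower and the median log2 difference was −0.16. The part of these markers in the results was not tested.

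Averaged over the 3 stages, Pdilt was the 1 gene of the 9 that passed, with 16.7% of all tested genes called and 11.5% called higher. It rose in Cxxc1-null cells by log2 0.88 ± 0.27 (limma, adjusted p = 0.0492), an average of 2 positive stages and a negative one. The call ended without any 1 of 11 of the 12 libraries, with adjusted p from 0.0577 to 0.123, with no filter on low values (0.0833) and under quantile normalization (0.0552), and without Cxxc1-null diplotene replicate 2 the value was 0.60 ± 0.18 (0.0584). Hspa8 averaged 0.36 ± 0.13 (0.0902), with a 95% interval from 0.07 to 0.66. Hspa2 averaged −0.44 ± 0.17 (0.0991), with an interval from −0.82 to −0.07, and passed at −0.57 ± 0.15 (0.0421) without Cxxc1-null meiosis II replicate 1. Hsp90aa1 averaged −0.27 ± 0.12 (0.167) and passed at −0.35 ± 0.09 (0.0217) under quantile normalization. It was lower in both Cxxc1-null libraries at all 3 stages, which held for 3.91% of all tested genes, and none of the 9 was higher in both at all 3 (8.24% of genes).

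The remaining averages were small beside their intervals. Hspa4l averaged log2 −0.10 (95% interval −0.38 to 0.18), Hsp90ab1 0.14 (−0.13 to 0.41) and Clgn 0.08 (−0.26 to 0.42). Calr3 averaged 0.15 (−0.50 to 0.79) and Hspa1l −0.23 (−0.76 to 0.30). For Hspa4l, Hsp90ab1 and Clgn, a shared genotype difference of log2 0.5 in either direction therefore lay outside the interval, which cannot be said of Calr3 or Hspa1l. That bounds the average alone, since the Hsp90ab1 values within stages went from −0.35 in pachytene to 0.68 in meiosis II. The genotype difference was also tested for change across stages. No chaperone gene passed, against 0.054% of all genes, and Hsp90ab1 came nearest (limma F test, adjusted p = 0.396, unadjusted p = 0.0175). Pdilt, Hspa8 and Hspa1l had unadjusted p of 0.0403, 0.0426 and 0.0429 in the same F test. The share of all tested genes with an unadjusted p under 0.05 in it was not computed. No weight is therefore put on these values.

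**Figure D3:**
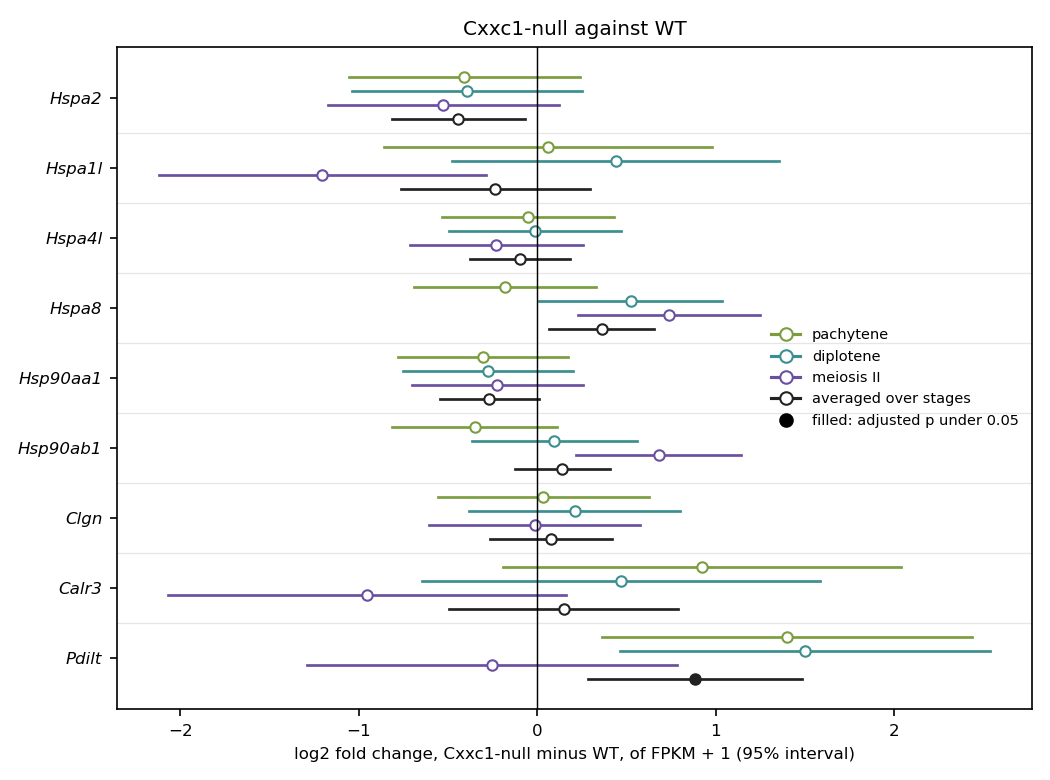
Log2 fold changes of FPKM + 1, Cxxc1-null minus WT, for the 9 chaperone genes in pachytene, diplotene and meiosis II and averaged over stages, with 95% intervals and filled points at adjusted p under 0.05. The Pdilt average of 0.88 is the single filled point, while Hspa8 and Hsp90ab1 lie right of zero and Hspa1l left of zero in meiosis II.

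Genes whose course over the 12 libraries was most like each chaperone were taken from 7851 genes with a mean of at least 5 FPKM, by Pearson's r of log2(FPKM + 1). The libraries share stages and genotypes, so these are descriptions. Pdilt was nearest to Izumo1 (r = 0.997), which encodes the sperm protein that binds the egg, then to 4930432K09Rik (0.996) and Zp3r (0.995), which encodes an acrosomal protein. Calr3 was nearest to Prss52 (0.985), a serine protease family gene, then to Dnajb7 (0.977) and 1700006E09Rik (0.973). Hspa1l was nearest to Wbscr25 (0.970), 1700022A21Rik (0.969) and Spert (0.962). Clgn was nearest to Aurka (0.985), which encodes a spindle kinase of cell division, then to Vrk3 (0.984) and Slc22a21 (0.981). Hsp90aa1 ran with Rrnad1 (0.991), Supt16h (0.980) and Zfp238 (0.977), and Hsp90ab1 with Sars (0.972), the seryl-tRNA synthetase gene, Men1 (0.959) and Dgkd (0.952). Hspa8 was nearest to Cs (0.976), the citrate synthase gene, Snapc3 (0.974) and Tsnax (0.974). For Hspa4l they were Pitpnb (0.965), Tfg (0.944) and Scyl2 (0.941), and for Hspa2 the looser matches Sephs2 (0.898), 4933436C20Rik (0.865) and Rab2b (0.864).

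The partners of these chaperones were read in lists of related genes, whose counts are to be set beside the shares of all tested genes: 26.1% rose and 18.9% fell from diplotene to meiosis II in WT, and 10.5% were called between genotypes in meiosis II. No list was tested against the other genes. HSPA2 is known in the mouse to help CDK1 bind cyclin B1 for the first meiotic division. Cdk1 measured 53.5 and 39.0 FPKM in WT and 17.4 and 16.1 in Cxxc1-null meiosis II libraries, and it fell in Cxxc1-null meiosis II cells by 1.40 ± 0.32 on the log2 scale (limma, adjusted p = 0.0245). Ccnb1, the cyclin B1 gene, rose in WT from 56.8 and 34.8 FPKM in diplotene to 258 and 198 in meiosis II, by 2.32 ± 0.28 (0.000106). Its meiosis II genotype difference was −0.25 ± 0.28 (0.616). Hspa2 had no called genotype difference at any stage.

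A list of sperm protein genes was drawn up around the testis ER chaperones. Not every gene on it, Tpst2 and Rnase10 among them, encodes a known client, so its counts are not counts of clients. Of the 19 listed genes 18 were in the table and tested, and 6 rose (33.3%) and 3 fell (16.7%) from diplotene to meiosis II in WT. Adam1a, Ace and Adam6b, which encode the sperm surface proteins of those names, rose by log2 3.83 ± 0.31, 3.61 ± 0.47 and 2.73 ± 0.36 (limma, adjusted p = 2.25e-05, 0.000166 and 0.000172). Tex101, which encodes a germ cell surface glycoprotein, fell by 3.50 ± 0.21 on the log2 scale (1.73e-05). Adam3, the client that CLGN, CALR3 and PDILT share, measured 99.1 and 134 FPKM in WT pachytene, 406 and 255 in diplotene and 408 and 421 in meiosis II. It rose at the first step, by 1.48 ± 0.28 (0.00585), as Clgn did. The second step, at which Calr3 and Pdilt rose, was 0.36 ± 0.28 (0.331) for Adam3. In meiosis II, 1 of the 18 differed between genotypes: Adam1b, at 49.2 and 40.5 FPKM in Cxxc1-null and 102 and 77.8 in WT libraries, fell by 0.98 ± 0.20 on the log2 scale (0.0150). Adam3 gave −0.14 ± 0.28 (0.805).

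Of the widely expressed ER chaperones and folding enzymes, 9 of 32 fell (28.1%) and 4 rose (12.5%) from diplotene to meiosis II in WT, with a median of −0.26 beside 0.02 for all genes. Dnajc3, an ER J-domain protein, fell by 2.12 ± 0.20 on the log2 scale (limma, adjusted p = 3.73e-05), and Sdf2l1, a stress-induced ER protein, fell by 2.06 ± 0.27 (0.000185). Txndc5 and Pdia5, both of the disulfide isomerase family, rose by 1.24 ± 0.14 (limma, adjusted p = 7.54e-05) and 1.51 ± 0.22 (0.000308). They went from below 0.1 FPKM to between 1.25 and 2.77. Those WT meiosis II libraries were enough to pass the filter of 1 FPKM in 2 libraries. A fall from below 0.1 FPKM could hardly be seen, so a rise was close to the only change open to these genes. Canx, the ubiquitous relative of Clgn, fell by 0.96 ± 0.24 from pachytene to diplotene in WT (0.0158), the step at which Clgn rose. Canx and Calr, the ubiquitous relative of Calr3, were named for that kinship after their values were seen, and Calr gave −0.17 ± 0.32 (0.700) from diplotene to meiosis II in WT. In Cxxc1-null against WT meiosis II cells, Dnajc3 rose by 0.85 ± 0.20 (limma, adjusted p = 0.0276), and Hyou1, an ER HSP110 relative, fell by 0.79 ± 0.21 (0.0382). Txndc5 fell there by 0.64 ± 0.14 (0.0191), but the libraries that let it pass the filter are the WT ones of this comparison. Its call between genotypes therefore carries little weight.

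Of 28 co-chaperones of HSP70 and HSP90, 6 fell (21.4%) and 2 rose (7.14%) from diplotene to meiosis II in WT. Tomm34 fell by 1.66 ± 0.28 (limma, adjusted p = 0.000770), Fkbp6, a germ cell partner of HSP90, fell by 1.498 ± 0.21 (0.000293), and the ubiquitin ligase gene Stub1 fell by 1.01 ± 0.26 (0.00873), all on the log2 scale. Unc45a rose by 0.92 ± 0.17 (limma, adjusted p = 0.00163), from 0.489 and 0.886 FPKM in diplotene to 2.04 and 2.29 in meiosis II. Apart from 1.08 FPKM in Cxxc1-null diplotene replicate 2, it reached 1 FPKM only in those WT meiosis II libraries. It passed the filter through the group where it was high, so its calls here and between genotypes carry little weight. Between genotypes in meiosis II, 2 of 28 (7.14%) differed, and both are HSP90 co-chaperone genes. Ttc4 fell by 1.31 ± 0.34 (limma, adjusted p = 0.0357). Unc45a fell by 1.04 ± 0.17 (0.00621), to 0.660 and 0.418 FPKM in Cxxc1-null meiosis II libraries. Of 39 tested J-domain genes, 11 rose (28.2%) and 7 fell (17.9%) at the same WT stage step. Those with the smallest p were Dnaja4, Dnajc5b, Dnajb7 and Dnajb8, which rose by 3.11 ± 0.37, 4.34 ± 0.54, 4.22 ± 0.58 and 4.03 ± 0.60 (limma, adjusted p from 0.000108 to 0.000399). Between genotypes in meiosis II, Dnajc17, Dnajc21 and Dnajc30 rose by 1.54 ± 0.24, 1.17 ± 0.22 and 0.96 ± 0.21 (0.00463, 0.0103 and 0.0189). In the other HSP70 genes, Hspa14, which encodes a ribosome-bound HSP70, fell in WT by 2.43 ± 0.24 on the log2 scale from diplotene to meiosis II (3.90e-05) and was higher in Cxxc1-null meiosis II cells by 0.99 ± 0.24 (0.0265). Hsph1, the HSP110 gene, fell there by 0.89 ± 0.24 (0.0455). The ER and mitochondrial HSP90 genes Hsp90b1 and Trap1 were not called in WT at that stage step and fell in Cxxc1-null cells by 0.61 ± 0.20 (0.0320) and 1.07 ± 0.30 (0.0147), and the difference between genotypes in that step was not tested alone.

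**Figure D4:**
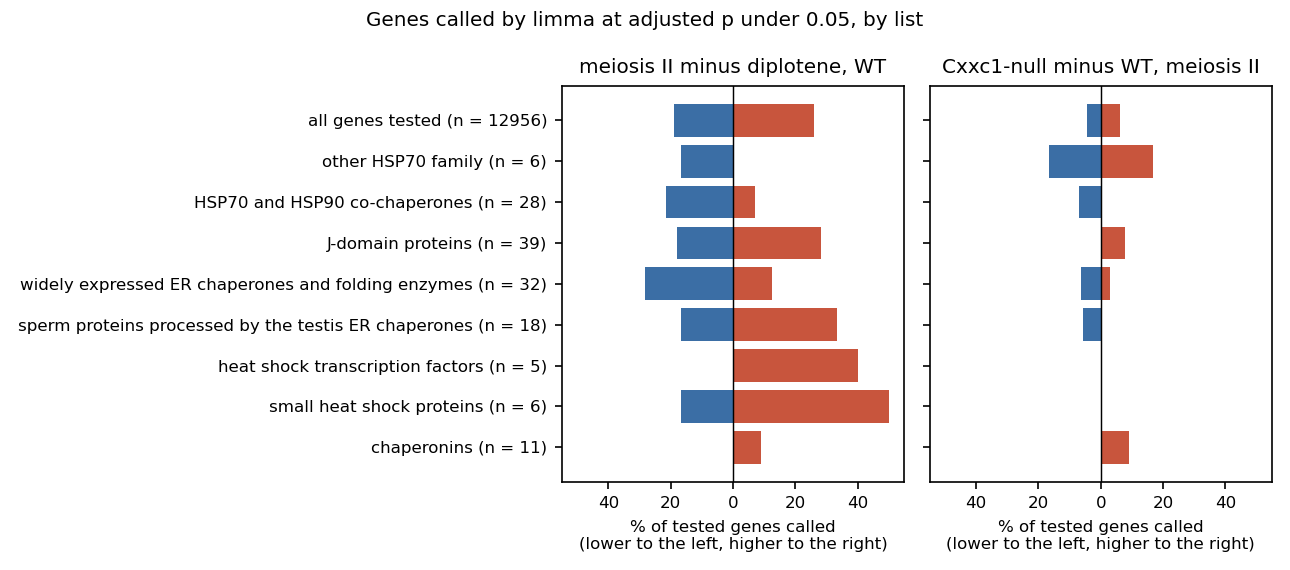
Percentage of the tested genes of each list that limma called lower (left of zero) or higher (right of zero) at adjusted p under 0.05, for meiosis II minus diplotene in WT and for Cxxc1-null minus WT in meiosis II. Bars for all 12956 genes stand at the top, and the lists of 2 HSP90 relatives and of HSPA2 partners are left out as too short. The sperm protein list also holds genes that do not encode known clients of the testis ER chaperones. At the WT stage step 28.1% of the ER list was called lower against 18.9% of all genes, and 33.3% of the sperm protein list was called higher against 26.1%, with no test of either difference.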

How the data were processed

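The authors deposited 1 table of FPKM values for 23235 genes in 12 RNA libraries, and per the submitters' processing notes TopHat2 2.1.1, Cufflinks 2.2.1 and build mm9 were used. Read counts could not be recovered from the low values, so depth is unknown, the number of libraries limits the precision and no count test was run. A gene was kept if 2 libraries reached 1 FPKM (12956 genes) and tested as log2(FPKM + 1) with limma 3.58.1 in R 4.3.3: 1 mean per group, all 12 libraries in 1 model with 6 residual degrees of freedom and a trended prior variance. P-values were adjusted by Benjamini-Hochberg over all tested genes and called at 0.05. The pseudocount of 1 understates changes of low genes. Fold changes of mean FPKM carry no pseudocount. The procedure was tested on simulated data.

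The members and lists were chosen with earlier results of these data known. All 9 chaperone genes are named, and of each list up to 4 called genes with the smallest p, plus the nearest relatives and the HSPA2 partners. Alternatives were a pseudocount of 0.1, no filter or 5 FPKM, quantile normalization, equal medians, separate fits, no trend, replicate blocks and leaving out libraries. The 8 H3K4me3 ChIP libraries in the labels were not used. Chromosome positions come from RefSeq tables of GRCm38.p6.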

Additional observations from a re-analysis of the deposited data

How the results depend on the processing

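Checked were the fold changes of the 9 genes averaged over stages, whatever their p, and any others with an unadjusted limma p under 0.05. Each was counted in every setting that gave it. Under the other settings, 262 of these checks kept direction and side of the threshold, 18 gained and 13 lost a call, and 2 changed sign. With 1 library left out, 323 kept both, 12 gained, 33 lost and 4 changed sign. The sign changes were in averaged genotype differences near zero. Stage steps and within-stage differences near zero were not checked, so nothing can be said of their signs. Clgn was at −0.040 under quantile normalization and between −0.033 and 0.187 with 1 library left out. Calr3 was at −0.161 without both libraries that stand apart and between −0.091 and 0.387 with 1 left out.

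Counts of chaperone genes called moved as follows, and the cause was not tested. Cxxc1-null against WT in diplotene gave 0 to 1 with 1 library left out. In meiosis II it gave 2 with equal medians (Hsp90ab1 and Hspa8), 2 with the replicate block (Hspa1l at adjusted p = 0.0470 and Hspa8 at 0.0433), and 0 to 1 with 1 library left out. The average over stages gave 0 with no filter, 0 with the replicate block (Pdilt at adjusted p = 0.0534), 0 with stages joined by replicate number (Pdilt at 0.120), 0 without both libraries that stand apart, and 0 to 1 with 1 left out. Diplotene against pachytene in WT gave 1 with no filter, 0 in a separate fit, 1 without both libraries, and 0 to 2 with 1 left out. In Cxxc1-null cells it gave 3 with the genotype-by-replicate block (adding Calr3 at adjusted p = 0.0445 and Hsp90ab1 at 0.0450), 2 without both libraries, and 0 to 2 with 1 left out. Meiosis II against diplotene in Cxxc1-null cells gave 5 with the replicate block and 5 with the genotype-by-replicate block, which added Hspa1l and Hsp90aa1. It gave 4 with a pseudocount of 0.1, a filter of 5 FPKM, quantile normalization, equal medians or no trend, and 2 to 4 with 1 library left out. The same step in WT, with 6 called in the main fit, gave 5 with no filter, quantile normalization or equal medians. With 1 library left out it gave 4 to 6.

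The replicate numbers were not taken as pairs, since only 2 numbers are shared and same-numbered libraries of the 2 genotypes correlated in their deviations at r = −0.07 in pachytene, 0.32 in diplotene and 0.11 in meiosis II. Between stages of 1 genotype the values were 0.29, 0.17 and 0.31 in WT and 0.20, 0.12 and 0.42 in Cxxc1-null cells, a hint from the data that numbers may be shared within a genotype, which the labels do not state. With 2 libraries a group, differences under about the intervals printed could not be told from the spread.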

Other observations

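Outside the HSP70, HSP90 and ER genes, the small heat shock protein gene Hspb1 differed between genotypes. It measured 4.15 and 6.33 FPKM in WT and 25.0 and 14.4 in Cxxc1-null pachytene, 9.47 and 13.2 against 30.6 and 38.2 in diplotene, and 33.3 and 26.8 against 55.6 and 68.8 in meiosis II. Both Cxxc1-null libraries were above both WT libraries at each stage, which held for 8.24% of all tested genes. Averaged over stages Hspb1 rose by log2 1.42 ± 0.18 (limma, adjusted p = 0.0011). It was the only 1 of 6 tested small heat shock genes called, or 16.7%, the same share as of all tested genes. Of 5 tested heat shock factor genes, Hsfy2 alone was called in the same average (20%, against 16.7% of all tested genes). It rose there by 1.13 ± 0.27 (limma, adjusted p = 0.0216), and from diplotene to meiosis II in WT by 4.18 ± 0.48 (8.30e-05). Hsf2, a heat shock factor of germ cells, rose at that step by 2.05 ± 0.29 (limma, adjusted p = 0.000268). At that step 40% of the list was called higher, against 26.1% of all tested genes.

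In WT, the mitochondrial chaperonin genes Hspe1 and Hspd1 had their lowest mean log2 level in diplotene. Hspe1 measured 110 and 56.1 FPKM in WT pachytene, 8.58 and 10.5 in WT diplotene and 17.4 and 12.6 in WT meiosis II, and it fell from pachytene to diplotene by 2.92 ± 0.33 on the log2 scale (limma, adjusted p = 0.000828). At the same step Hspd1 fell by 2.202 ± 0.35 (limma, adjusted p = 0.00275), and it then rose by 1.35 ± 0.35 (0.00983). From diplotene to meiosis II in WT, Hspd1 was the only 1 of 11 chaperonin genes called, so the Hspe1 step was not called. That share was 9.09%, against 45% of all tested genes. The 2 falls from pachytene to diplotene were 18.2% of the 11 genes, near the 17.4% of all tested genes called lower. In meiosis II, Hspe1 measured 32.1 and 49.1 FPKM in Cxxc1-null libraries. It was higher than in WT by 1.37 ± 0.33 (limma, adjusted p = 0.0296). Among the 11 chaperonin genes it was the only 1 called there (9.09%, against 10.5% of all tested genes). Hspa9, the mitochondrial HSP70 gene named after its values were seen, gave 0.03 ± 0.21 (0.946) from pachytene to diplotene in WT.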
